A study of Vitis x labruscana x Vitis vinifera with 36 samples.

Results

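Berry flesh of 'Shine Muscat' grapes, seedless against seeded, was compared for its transcript levels at stage 1, the lowest-numbered stage sampled. The comparison rests on 3 seedless and 3 seeded flesh libraries, chosen by their labels, which are 6 of the 36 libraries of the series and 6 of its 18 flesh libraries. All carry the genotype label Shine Muscat, a table grape whose source is given as Vitis labruscana Bailey × Vitis vinifera L. In the series title seedless means treated and the other berries are nontreated, and no label names the agent, its dose or the age of the berries at stage 1. The other libraries cover skin at the same stage and both tissues at stages 3 and 4.

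As background, developing seeds are a source of growth hormones for the berry around them, among them gibberellins and auxins. Seedless berries of this cultivar are commonly obtained by applying gibberellic acid around bloom. A grape berry first grows as a hard green fruit and later softens, gains sugar and loses acid, with a large change of transcripts at that turn. The deposited table does not pair its identifiers with gene names or products, so single genes appear under their identifiers, without a stated role. The results are therefore ordered by groups of genes that the other libraries of the series define: genes that change with ripening, and genes that distinguish skin from flesh.

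At stage 1, seedless flesh differed from seeded flesh in 2339 of 13639 tested genes, or 17.1% (edgeR quasi-likelihood test, Benjamini-Hochberg adjusted p under 0.05). Of these, 1200 (8.8% of tested genes) were higher and 1139 (8.35%) were lower in seedless flesh. Called genes whose transcripts rose late in ripening were mostly higher in seedless flesh, and called genes that fell late in ripening were mostly lower. Skin-enriched genes among the calls were mostly lower as well. At equal depth the test called 1368 of 9027 genes (15.2%), 592 higher and 776 lower.

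The libraries differed in depth. The seedless libraries held 3.58, 4.04 and 3.83 M counts (M, mega) in replicates 1, 2 and 3, and the seeded ones 0.71, 0.61 and 1.25 M. No pair of replicates agreed within counting noise: the variance between them was 3.44 times that of counting or more, so all 6 were used as separate samples. The seeded libraries spread more also when each library was thinned to 608901 counts, the total of the shallowest. The biological coefficient of variation was then 0.192 in seeded and 0.114 in seedless flesh, over 8723 genes averaging 10 counts per mega-count (CPM) or more. At that depth libraries of the seedless group differed from each other in 8.24% to 8.76% of their counts, and those of the seeded group in 10.3% to 14.0%. Between the groups 15.0% to 20.3% of the counts differed, so each of the 9 pairs across groups lay above each of the 6 pairs within them. Seeded replicate 1 lay farthest from the seedless libraries, at 19.5% to 20.3%.

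ENSRNA rows, which carry another kind of identifier than the VIT genes, took 3.14% of seeded replicate 1 (95% Wilson interval 3.10% to 3.18%), with 2.69% in a single row. They took 0.924% and 1.17% of the other seeded libraries and 0.552% to 0.696% of the seedless ones. Of 39 tested ENSRNA rows 3 were higher and 4 lower in seedless flesh, a called share of 17.9% beside the 17.1% of all tested genes. Reads are not independent molecules, so such intervals cover counting error only.

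The numbers of detected genes were similar once depth was made equal. Thinned seedless libraries held counts for 13959, 13872 and 13765 genes and thinned seeded ones for 13683, 13194 and 13676. The groups did not overlap, and their difference of 348 genes had an exact two-sided permutation p of 0.1, the smallest that 3 against 3 libraries allow. Without seeded replicate 2 the difference was 185.8 genes, and without each library in turn 185.8 to 430.3. With at least 3 counts required, the numbers overlapped, at 10941 to 11099 in seedless and 10604 to 11140 in seeded libraries.

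Genes present in 1 group and absent from the other were few. At equal depth 12 rows had at least 10 pooled counts in seedless flesh and 0 in seeded flesh, and 8 rows showed the opposite. As deposited these numbers were 317 and 3, at depths where 0 counts allow up to 1.17 CPM in the pooled seeded libraries and 0.262 CPM in the seedless ones. Among tested genes, 140 had no seeded count and 24 of them were called, and the steepest fitted rises were in genes of this kind.

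The called genes held a large part of the transcript pool. Genes called higher took 21.0%, 20.7% and 20.6% of the counts in seedless replicates 1, 2 and 3, and 11.1%, 13.3% and 12.7% in the seeded ones. Genes called lower took 13.8%, 13.8% and 14.1% in seedless flesh and 23.5%, 21.5% and 22.2% in seeded flesh. These genes were chosen by this difference, so the shares describe its size and are no test of it.

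Over all 13639 tested genes the median size of the difference was 0.42 log2 units, and 17.3% had a fitted difference of at least 2-fold, called or not. Over the 8901 genes averaging 10 CPM or more these values were 0.34 log2 units and 8.84%. Among called genes 538 were higher and 524 lower by at least 2-fold, and 132 and 147 by at least 4-fold. The groups did not overlap at 4200 tested genes (30.8%), and 2174 of the 2339 called genes were among them. Over all tested genes the median difference was 0.05 log2 units.

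The share of genes called rose with the reads behind them. Tested genes were split by level into 5 classes of equal size. In the lowest class, up to 4.90 CPM, the median gene had 6 pooled seeded and 28 pooled seedless reads. The median standard error of the log2 difference there was 0.82, and 4.62% of the genes were called. In the highest class, above 68.5 CPM, the medians were 337 seeded and 1473 seedless reads, the median standard error was 0.15 and 32.6% were called. Called genes differed by a median of 2.85 log2 units in the lowest class and 0.61 in the highest.

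The direction of the calls also moved with level. In the highest class 390 genes were higher and 498 lower in seedless flesh, while the class below it had 340 higher and 249 lower. At equal depth the highest class had 245 higher and 473 lower genes, and the class below had 182 and 184. Of 2129 genes with at least 100 CPM in a group, 341 were higher and 464 lower. Of the 133 genes with at least 1000 CPM in a group, 32 were higher and 32 lower, and 7 and 5 of these by at least 2-fold.

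**Figure D1:**
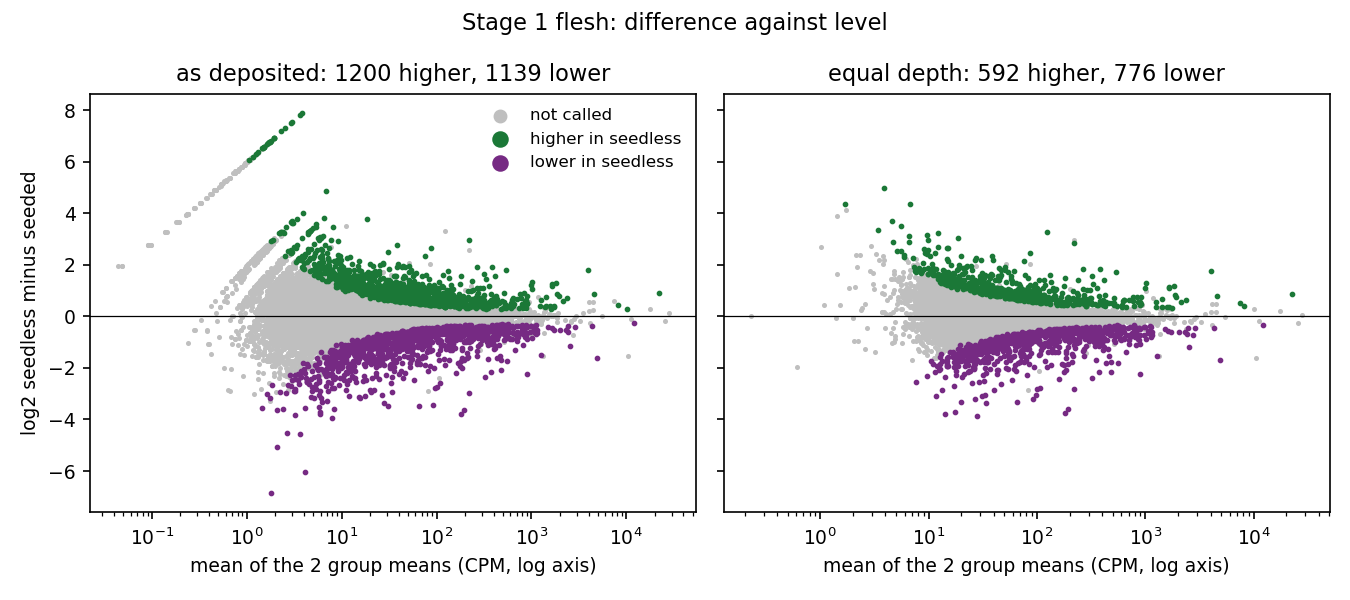
Each point is a tested gene, with the mean of the group means in CPM on a log axis and the log2 difference, seedless minus seeded, on the vertical axis, for all counts (left) and at equal depth (right). Called genes are coloured (1200 higher and 1139 lower on the left, 592 and 776 on the right), and the slanted lines of points at low level on the left are genes with few or no seeded reads.

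**Figure D2:**
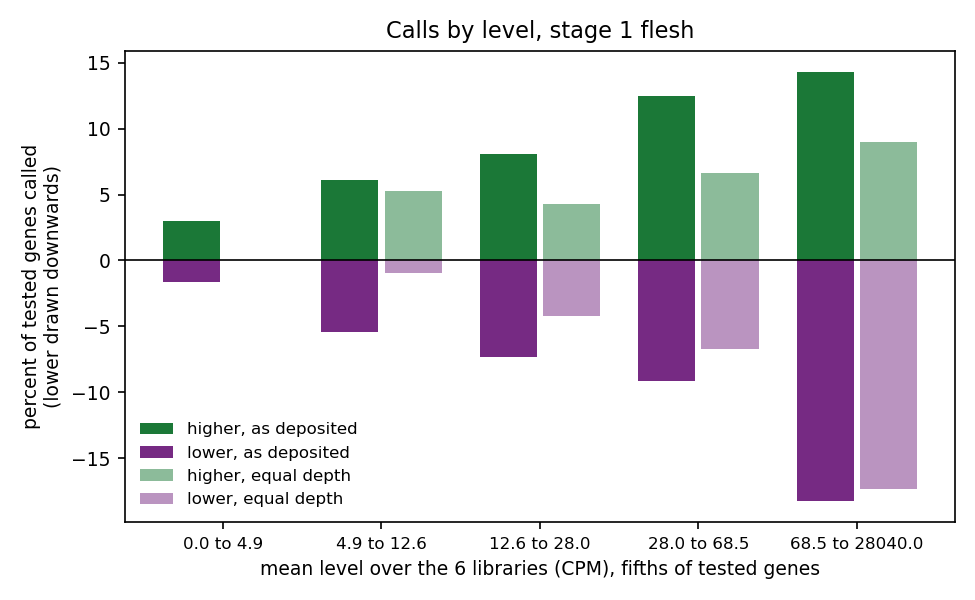
Bars give the percent of tested genes called higher (up) and lower (down) in seedless flesh in 5 classes of mean level over the 6 libraries, as deposited and at equal depth. The percentages at equal depth are of the genes tested there, and the lowest class has no such bar because only 61 of its genes were tested.

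Of the 2339 genes called as deposited, 2017 could be tested at equal depth, 2016 of these had the same sign and 1236 were called again in the same direction. This was 46.0% of the genes called higher and 60.1% of those called lower. Of the genes that could be tested at equal depth it was 51.1% and 73.1%. Over 10 random draws of the thinning, 1342 to 1452 genes were called, and 674 of the 2339 genes were called in the same direction in every draw. A further 415 were called in none of the draws, a count that takes in genes too low to be tested there. At equal depth 132 genes were called that were not called as deposited. Leaving out each of the 6 libraries in turn, 1056 of the 2339 genes kept their call and direction every time, 521 higher and 535 lower.

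Part of the genes of late ripening differed by treatment at stage 1. These genes were defined as those that changed between stages 3 and 4 in flesh over both treatments, which 5075 of 13639 genes (37.2%) did. Stage 1 libraries are no part of that contrast, although the fit of the 18 flesh libraries shares its filter and its spread with them. Of the 2266 genes that rose, 423 (18.7%) were higher and 73 (3.22%) lower in seedless flesh at stage 1. Of the 2809 genes that fell, 174 (6.19%) were higher and 643 (22.9%) lower. Over all tested genes these shares were 8.8% and 8.35%. Among the 8564 genes without a call between stages 3 and 4, 7.04% were higher and 4.94% lower. With the classes taken from a fit of the 12 libraries of stages 3 and 4 alone, 454 of 2503 rising genes (18.1%) were higher and 82 lower. Of 2843 falling genes 634 (22.3%) were then lower and 181 higher.

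The median stage 1 difference was 0.32 log2 units for the rising genes and -0.22 for the falling ones, against 0.05 for all tested genes. Of the rising genes 71.9% had a positive difference, and of the falling genes 33.5%. Genes that fell by at least 2-fold between stages 3 and 4 stood farther out: of 893 such genes 268 (30.0%) were lower at stage 1 and 33 higher, with a median of -0.52. Among the 460 genes that rose by at least 2-fold, 49 (10.7%) were higher and 10 lower, with a median of 0.39. The share called higher was near the 8.8% of all tested genes and below the 18.7% of all rising genes. Put the other way, 35.3% of the genes higher in seedless flesh were rising genes, which are 16.6% of all tested genes. Falling genes, 20.6% of all tested genes, were 56.5% of those lower in seedless flesh.

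At equal depth the pattern had the same shape. Of 1081 rising genes 173 (16%) were higher and 34 lower, and of 1434 falling genes 389 (27.1%) were lower and 77 higher. Over all 9027 genes tested at that depth 592 were higher and 776 lower. The medians were 0.25 and -0.27 log2 units. A summary per library was taken at equal depth from 248 genes that rose and 446 that fell by at least 2-fold, as the median deviation of the rising genes from their mean over the flesh libraries minus that of the falling genes. It was -0.73, -0.96 and -0.85 in seedless replicates 1, 2 and 3 at stage 1. In the seeded libraries of stage 1 it was -1.68, -1.73 and -1.81. The groups did not overlap, and the 3 seeded libraries lay closer to each other than to any seedless library. Depth as deposited and ENSRNA share also differed between the groups without overlap, and their part was not tested. With genes from the 12 libraries of stages 3 and 4 alone the seedless libraries lay between -0.966 and -0.745 and the seeded ones between -1.825 and -1.657.

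Seedless flesh at stage 1, at -0.85 ± 0.11 (SD, n = 3), thus lay between seeded flesh at stage 1, at -1.74 ± 0.07, and seedless flesh at stage 3, at -0.39 ± 0.16. Seeded flesh of stage 3 had -0.97 ± 0.03, with libraries from -1.003 to -0.95. Of the seedless libraries of stage 1 only replicate 2, at -0.962, lay within that range. At stage 4 the means were 1.78 ± 0.23 in seedless and 2.31 ± 0.30 in seeded flesh. Stage 3 and 4 libraries chose the genes, so their values set the scale and are not a result.

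**Figure D3:**
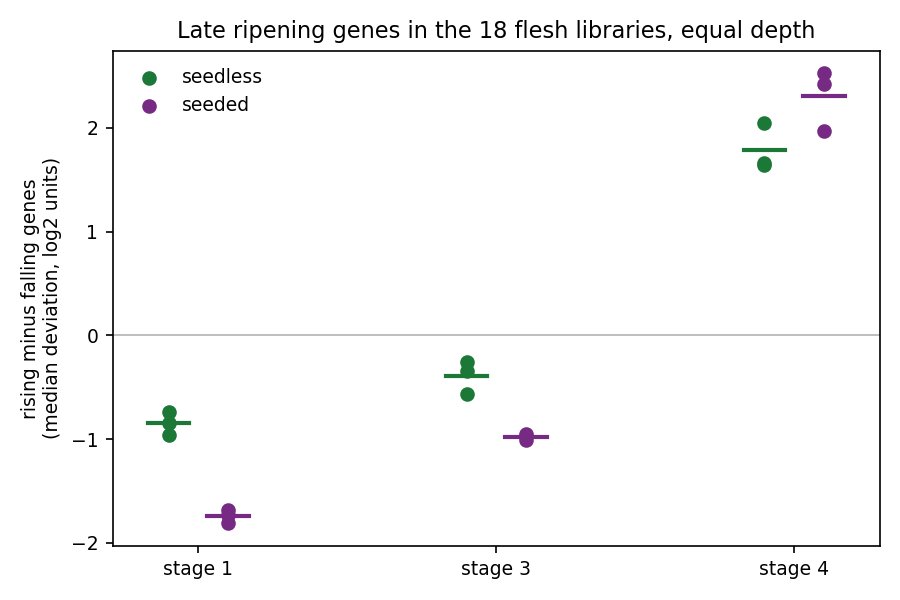
Points are the 18 flesh libraries at equal depth and bars the group means, by stage (horizontal) and by the median deviation of 248 rising minus 446 falling genes in log2 units (vertical). At stage 1 the seedless libraries lie between -0.96 and -0.73 and the seeded ones between -1.81 and -1.68. Of these seedless libraries only replicate 2 lies within the range of seeded flesh at stage 3, whose libraries helped to choose the genes.

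The same direction was seen with genes defined by a contrast within skin. In seedless skin, 294 of the tested genes rose and 447 fell between stages 1 and 3, in the fit of all 36 libraries. Of the rising genes 84 (28.6%) were higher and 17 (5.78%) lower in seedless flesh at stage 1, and their median difference was 0.38 log2 units. Of the falling genes 192 (43.0%) were lower and 19 (4.25%) higher, with a median of -0.50. In a fit of the 6 seedless skin libraries of these stages alone, 102 of 362 rising genes (28.2%) were higher and 29 lower, and 230 of 582 falling genes (39.5%) were lower and 21 higher.

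Skin-enriched genes were called lower more often than the 8.35% of all tested genes. Of 904 genes that were at least 2-fold higher in skin than in flesh at both stages 3 and 4, 221 (24.4%) were lower and 32 (3.54%) higher in seedless flesh at stage 1. Of 454 genes at least 2-fold higher in flesh, 66 (14.5%) were higher, against 8.8% of all tested genes, and 38 (8.37%) lower, a share like that of all tested genes. The median differences of the skin-enriched and flesh-enriched genes were -0.60 and 0.20 log2 units. In whole tissue, fewer cells of a type and less transcript in each of them cannot be told apart.

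Skin transcripts were checked in each library with a stricter list of 215 genes, at least 16-fold higher in skin at stages 3 and 4. The list took 0.0539%, 0.0639% and 0.0488% of the counts in seedless flesh replicates 1, 2 and 3 at stage 1. In seeded flesh it took 0.129%, 0.0967% and 0.106%. It took 1.92% to 3.06% in the skin libraries of that stage and 0.0411% to 0.0850% in flesh of stages 3 and 4. The seeded libraries of stage 1 thus held more of these transcripts than the seedless ones, at 0.111% ± 0.016 against 0.0555% ± 0.0077 (SD, n = 3; exact two-sided permutation p = 0.1, the smallest possible). All 6 libraries lay far below skin, so none went against its flesh label by this list.

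The 904 skin-enriched genes took 3.60% to 3.77% of seeded and 2.40% to 2.48% of seedless flesh libraries, against 10.3% to 11.6% of the skin libraries of that stage. They were 19.4% of the genes called lower and 2.67% of those called higher, and 6.63% of tested genes. Whether skin tissue in the seeded flesh samples had a part in these calls was not tested. Without these genes 918 genes were lower and 1168 higher in seedless flesh. Among the remaining falling genes 487 of 2455 (19.8%) were lower and 164 higher, and among the remaining rising genes 418 of 2219 (18.8%) were higher and 72 lower. The summary per library without them was -0.97 to -0.76 in seedless and -1.74 to -1.60 in seeded flesh. Seed transcripts could not be looked for without gene names, and their part was not tested.

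**Figure D4:**
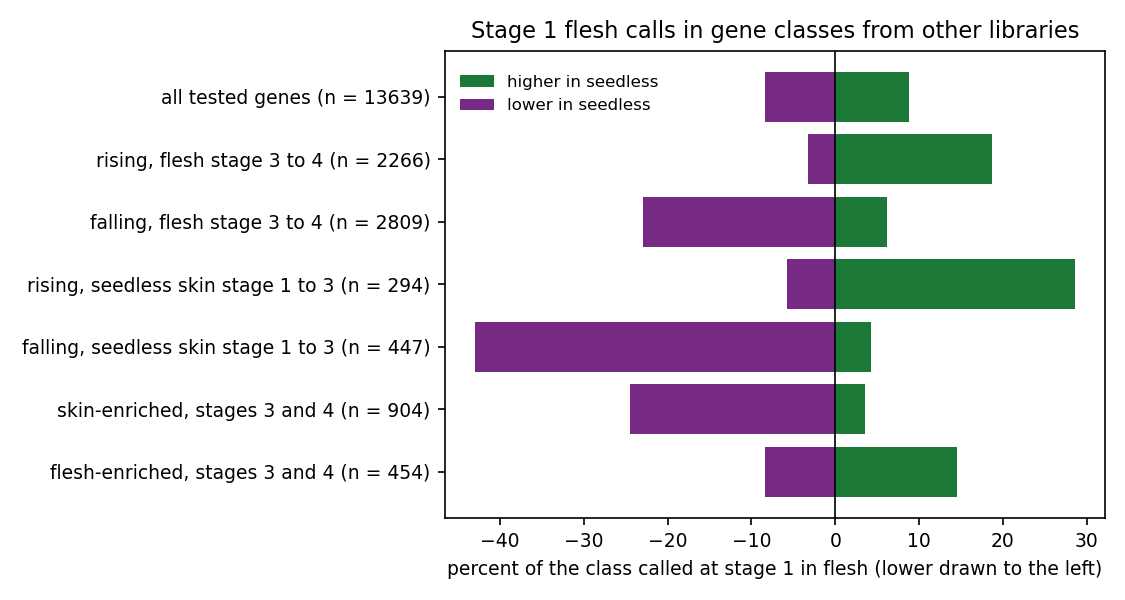
Bars give the percent of each gene class called higher (right) and lower (left) in seedless flesh at stage 1, with the number of genes in the class. The classes other than all tested genes were defined by contrasts between libraries other than those of stage 1 flesh; rising classes extend to the right and falling and skin-enriched classes to the left.

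Single genes are described for 2 rises and 2 falls, taken by size of difference under the naming rule. They were picked for a large difference and no overlap between the groups at stage 1. Their separation there was therefore set by the choice, and a smaller difference at another stage is only a description. VIT_14s0066g01090 (chromosome 14 by its identifier) had 36.7, 28.5 and 38.5 CPM in seedless flesh replicates 1, 2 and 3 and 2.91, 3.59 and 1.72 CPM in seeded ones, from 2 reads in each seeded library. Every seedless library lay far above every seeded one. The log2 difference was 3.77 ± 0.44 (SE; edgeR adjusted p = 1.7e-07), and at equal depth 3.06 (edgeR adjusted p = 8.4e-06), called in 10 of 10 draws. At stage 3 it had 74.0 ± 12.4 against 24.3 ± 5.21 CPM (SD, n = 3; edgeR adjusted p = 1.9e-07). At stage 4 it had 189.5 ± 29.6 against 155 ± 39.1 CPM, a difference of 0.29 ± 0.16 log2 units that did not pass (edgeR adjusted p = 0.42). The gene itself rose between stages 3 and 4, and was higher in seedless skin at stage 1 by 2.61 ± 0.69 (edgeR adjusted p = 0.0052).

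VIT_17s0000g07030 (chromosome 17) had 14.3, 16.9 and 9.21 CPM in seedless flesh replicates 1, 2 and 3 and 0, 5.38 and 0.862 CPM in seeded flesh, the latter from 0, 3 and 1 reads. The seedless libraries lay above the seeded ones, whose values are a few reads each. The log2 difference was 2.98 ± 0.61 (SE; edgeR adjusted p = 0.00048), and only 2 of 10 equal-depth draws called it. Draws in which the gene was too low to be tested, such as the equal-depth draw used, count as draws without a call. Without seeded replicate 2, which holds 3 of the 4 seeded reads, the difference was 4.57 (edgeR adjusted p = 0.00012), and over the 6 libraries left out in turn it was 2.47 to 4.57 (edgeR adjusted p from 0.00012 to 0.017). In skin at stage 1 it was higher by 3.36 ± 0.64 (edgeR adjusted p = 7.4e-05). At stage 3 in flesh the difference was 0.36 ± 0.32 (edgeR adjusted p = 0.54), and at stage 4 it was higher again, by 1.14 ± 0.32 (edgeR adjusted p = 0.03).

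VIT_05s0020g01830 (chromosome 5) had 23.6, 17.7 and 31.3 CPM in seedless and 258, 506 and 244 CPM in seeded flesh replicates 1, 2 and 3. The groups were far apart, with seeded replicate 2 the highest. It was lower in seedless flesh, with a log2 difference of -3.77 ± 0.30 (SE; edgeR adjusted p = 1.5e-07), or -3.75 at equal depth (edgeR adjusted p = 9.5e-07). At stage 3 it was still lower, at 12.3 ± 0.843 against 49.4 ± 19.8 CPM (SD, n = 3; edgeR adjusted p = 0.00027). At stage 4 it had 6.17 ± 0.823 against 4.01 ± 1.14 CPM (edgeR adjusted p = 0.64). It was lower in seedless skin at stage 1 too, with a difference of -3.03 ± 0.27 (edgeR adjusted p = 3.5e-09).

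VIT_18s0001g06950 (chromosome 18) was a low gene, with 0.583, 1.32 and 0.558 CPM in seedless and 5.83, 14.3 and 12.9 CPM in seeded flesh. Behind these stood 2, 5 and 2 reads and 4, 8 and 15 reads in replicates 1, 2 and 3. As the naming rule required, the groups did not overlap. The difference was -3.69 ± 0.72 log2 units (SE; edgeR adjusted p = 0.00028), and none of the 10 equal-depth draws called it. The gene was too low to be tested in the equal-depth draw used, so a draw without a call need not be a failed test. In skin at stage 1 it was lower, with a difference of -2.10 ± 0.41 (edgeR adjusted p = 0.00011), and at stage 3 in flesh the difference was -0.86 ± 0.73 (edgeR adjusted p = 0.52).

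**Figure D5:**
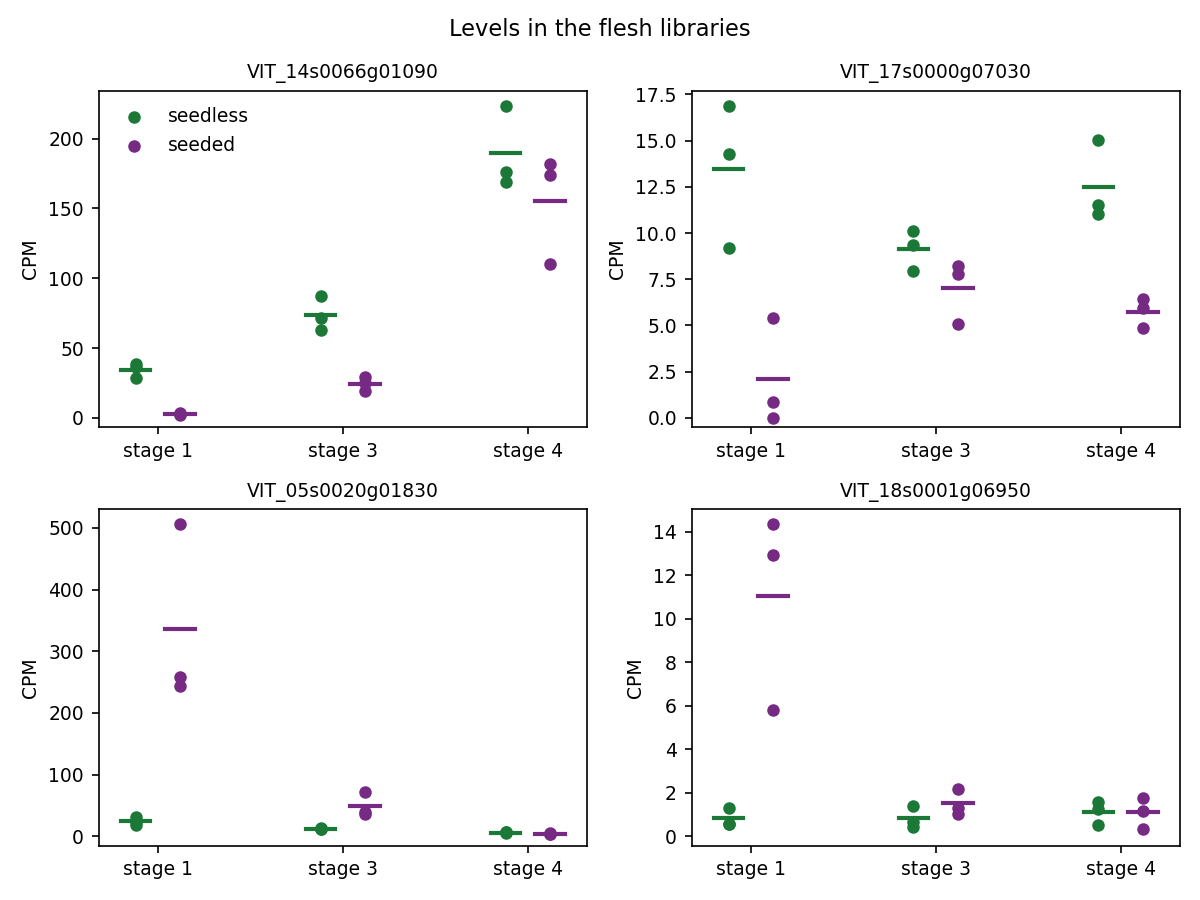
Points give the level in CPM of the 4 named genes in each flesh library by stage, and bars the mean of 3 libraries. The genes were picked for their stage 1 difference, and there VIT_05s0020g01830 reached 506 CPM in seeded flesh and 31.3 CPM or less in seedless flesh.

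Called genes were spread over the genome. By chromosome number in the identifiers, between 14.1% of tested genes (those on unplaced sequence) and 19.3% (chromosome 17) were called, against 17.1% in all. The genes next in identifier order to a gene called higher were called higher in 9.25% of cases, near the 8.80% of all VIT genes. For lower genes this share was 10.8%, against 8.35%. Runs of at least 3 consecutive tested genes called in the same direction numbered 12 on each side, with 36 higher and 40 lower genes. How many such runs calls placed at random would give was not computed, so the number is no sign of clustering.

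Some runs held abundant transcripts and are given as a description, since they were picked by their calls. Over 3 higher genes on chromosome 19 the summed level was 10250, 11170 and 10230 CPM in seedless flesh and 3115, 5253 and 4124 CPM in seeded flesh. The same 3 genes were higher in seedless skin. Over 4 lower genes on chromosome 4 it was 229, 268 and 268 CPM in seedless and 1084, 968 and 813 CPM in seeded flesh, and all 4 were called at equal depth. The longest run, of 6 lower genes on unplaced sequence, had 719, 530.0 and 628 CPM against 1532, 1024 and 1022 CPM. Neighbouring genes can be copies that share reads, which could not be assessed.

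Skin at stage 1 was the most similar comparison, and it shares no library with flesh. The library titles do not say whether flesh and skin came from the same berries, so the tissues may not be independent. Of the genes higher in seedless flesh 88.2% had a positive difference in skin, and of the lower ones 89.7% a negative one. In a fit of all 36 libraries, 521 genes were higher in both tissues, which is 43.4% of the flesh list and 37.4% of the skin list. Over all tested genes 10.2% were higher in seedless skin and 8.8% in seedless flesh. There were 564 genes lower in both, 49.5% of the flesh list and 46.7% of the skin list, against 8.85% of all tested genes lower in skin and 8.35% in flesh. The difference between treatments was itself not the same in flesh and skin for 324 of 14841 genes (2.18%; edgeR adjusted p under 0.05). At 203 of these the fitted differences of the tissues had opposite signs, called or not, and at 194 the flesh difference was the larger in size. The matching shares of all tested genes were not counted, so both numbers describe the called genes only. Calls in opposite directions were few: of 1200 genes higher in flesh 7 were called lower in skin, and of 1139 lower genes 16 were called higher. Equal depth left 139 such genes.

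Against flesh at stage 3, the difference at stage 1 was not the same for 1095 of 13639 genes (8.03%). At 825 of these (75.3%) it was larger in size at stage 1, and at 806 the fitted signs were opposite, called or not. The matching shares of all tested genes were not counted, here or at equal depth. These numbers therefore describe the called genes only. Of 1200 genes called higher at stage 1, 187 (15.6%) were called higher and 47 lower at stage 3, and 67.7% had the same sign. Of 1139 called lower, 208 (18.3%) were called lower and 66 higher, and 67.1% had the same sign. The shares of all tested genes called each way at stage 3 are not given here. At equal depth 482 genes were called, 67.8% of them larger at stage 1. Genes higher at stage 1 had a median difference of 0.93 log2 units there, 0.15 at stage 3 and -0.02 at stage 4. For genes lower at stage 1 the medians were -0.93, -0.19 and 0.03. The first value of each set was chosen to be large, so the drop from it is not a measure of change.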

How the data were processed

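RNA from grape flesh and skin was made into Lasy-seq libraries, per the labels' protocols, a method that indexes transcripts at reverse transcription. The authors deposited whole-number read counts per gene with no normalization, in 30661 rows (29971 VIT and 690 ENSRNA identifiers, 0 summary rows) and with 0 columns outside the 36 samples. Per the submitters' processing notes, fastp 0.20.0, HISAT2 2.2.1 and featureCounts were used. No source used here names the build, the annotation, the strand setting or how multiply matching reads were counted, so copies and overlapping genes can share reads. Columns were tied to samples by treatment, stage, tissue and number.

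edgeR 4.0.16 in R 4.3.3 was used: TMM scaling, filterByExpr at 10 counts, the robust quasi-likelihood F-test, Benjamini-Hochberg adjustment over all tested genes and a threshold of 0.05. Flesh contrasts came from a fit of the 18 flesh libraries in 6 groups, which share an estimate of the spread, and contrasts that involve skin came from a fit of all 36 libraries. Gene classes were also taken from fits that hold only the libraries of their own contrast. Standard errors are the log2 difference over the square root of F. CPM values per gene are TMM-scaled, while list shares are of all counts. For equal depth every library was thinned without replacement to 608901 counts. The functions were tested on simulated data.

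Whether replicates are separate vines or berries is not labelled, so p-values reflect spread that may be technical. The labels give no batch. The gene classes, lists and alternatives were chosen with earlier results of these data known. Named genes passed the test, had a mean of at least 5 CPM, no overlap between groups and at least 4 pooled reads in the lower group, and were the largest differences after passing over genes already described in those earlier results. Product lists planned for hormones, cell wall, aroma, seed and other functions could not be applied without gene names and give no result.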

Additional observations from a re-analysis of the deposited data

Results flagged for a closer look

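A difference between tissues was found by the test of the difference itself at 324 genes, whose seedless-against-seeded difference at stage 1 was not the same in flesh and skin. A difference between stages was found in the same way at 1095 genes of flesh, between stages 1 and 3. Groups of 3 libraries were too small for a test of single outlying libraries.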

How the results depend on the processing

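The 2339 calls became 1368 at equal depth and 1473 with voom and quality weights (limma 3.58.1), where 577 were higher and 896 lower, and 2505 with DESeq2 1.42.0 (1069 higher, 1436 lower). The 6 libraries alone gave 1795 calls. RLE scaling gave 1069 higher and 1265 lower. No alternative called any of the 2339 genes in the opposite direction. At equal depth the 2-fold calls fell from 1062 to 643, those against skin from 324 to 139 and those against stage 3 from 1095 to 482. With 1 library left out, the ranges were 1817 to 2175 calls, 928 to 1126 by 2-fold, 230 to 338 against skin and 845 to 1118 against stage 3. The median of rising genes was 0.266 with RLE and 0.249 at equal depth, and 0.306 to 0.355 with 1 library left out. That of falling genes was -0.266, -0.271 and -0.242 to -0.189, and -0.177 without skin-enriched genes, an alternative chosen after seeing the data, as was the refit of each class on its own libraries, which gave 0.308 for rising and -0.205 for falling genes. The cause of these shifts was not tested, but thinning leaves fewer genes and reads. The 4 named genes kept their sign and call in every alternative that tested them, although VIT_17s0000g07030 and VIT_18s0001g06950 were too low to be tested in the equal-depth draw used. Deviations of same-numbered libraries had correlations of 0.039, -0.006 and -0.014. With 3 libraries a group and shallow seeded ones, such values cannot decide whether the numbers pair them. A replicate block gave 1206 higher and 1133 lower genes, 2339 in all. Against skin the block gave 389 genes, and 362 when set within each tissue.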
